A study of Mus musculus with 2 samples.

Results

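The mitochondrial ribosomal protein genes were examined in the gastrocnemius (GAS) muscle of skeletal muscle-specific *Gde5* knockout (*Gde5* skKO) and WT mice. They were taken by name alone: every probe that is not a control and whose gene name on the array begins with Mrpl or Mrps followed by a digit. This gave 125 of the 41174 probes, which stand for 75 of the 27591 named features. The muscle came from male mice of 15 weeks of age. In *Gde5* skKO mice, Cre recombinase under the human α-skeletal actin promoter (HSA-Cre) acts on *Gde5* flox/flox alleles, so the deletion is directed to muscle fibres, and vessels, nerve, fat and connective tissue in the muscle keep the gene. The labels call the comparison group wild-type, and the study's methods use *Gde5* flox/flox littermates without Cre as controls elsewhere. *Gde5* (*Gpcpd1*) encodes a glycerophosphodiesterase that hydrolyses glycerophosphocholine to choline and glycerol 3-phosphate.

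RNA of both genotypes competed on each of 2 two-colour Agilent whole mouse genome arrays. Array 1 held WT in Cy3 and *Gde5* skKO in Cy5, and array 2 held them with the dyes exchanged. The design text names 5 mice of each genotype, but does not say if RNA was pooled and if the arrays carried the same RNA, so the arrays are treated as 2 hybridizations and the mice cannot be tested against each other. Both lie on 1 slide and come from 1 scan. The feeding state of the mice is not given in the labels. The paper describes array data from muscle after a glucose injection and further data with fasting. It does not say which of these the deposited arrays hold.

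The mitochondrial ribosome (mitoribosome) translates the few respiratory chain subunits that are encoded by mitochondrial DNA. Its RNA comes from mitochondrial DNA, whereas all of its proteins are encoded in the nucleus, made in the cytosol and imported. Some of these proteins belong to families shared with bacterial ribosomes, and others are found only in mitochondria. In skeletal muscle, slow and oxidative fibres hold more mitochondria than fast glycolytic fibres.

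Throughout, a log2 ratio is the *Gde5* skKO signal over the WT signal of the same probe on the same array, positive where *Gde5* skKO was higher. A gene was called when the error model of the scanner software gave a p-value under 0.05 on both arrays and both ratios pointed the same way. For each gene the brightest probe was used, by its mean log2 processed signal over both channels and both arrays. It was taken among probes whose signal stood well above background on both arrays in 1 or both channels, which left 13592 genes. All 75 mitochondrial ribosomal protein genes passed, and their probes stood well above background for both genotypes on either array. Of the 125 probes, 114 passed, none was saturated, and 1 probe of *Mrps7* lacked a value on array 2 because of an outlier mark.

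The targeted gene separated the genotypes on 3 of its 4 probes. At the probe at chr2:132221088-132221147 (mm8), the processed signal was 13392 in WT and 2229 in *Gde5* skKO on array 1, and 17840 in WT and 1850 in *Gde5* skKO on array 2. The mean log2 ratios of the 3 probes were -2.93, -2.97 and -3.18. The remaining probe, at chr2:132256048-132256107 (mm8), had ratios of -0.05 and -0.47 on arrays 1 and 2. It lies nearer to the 5′ end of the gene, which is on the minus strand, and the 3 others lie nearer to the 3′ end. Over both genotypes and both arrays this remaining probe had the highest mean log2 signal of the 4. It therefore represented *Gde5* in the counts, and the rule did not call the deleted gene. In WT alone its signal was 6917 on array 1 and 7610 on array 2. There 2 of the others were brighter, at 13034 or more on array 1 and 15747 or more on array 2. Each of the 3 others passed the threshold on both arrays and was lower in *Gde5* skKO.

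The ratios of the mitochondrial ribosomal protein genes centred slightly above 0. On each of the arrays the median over the 75 genes was 0.08, against 0.01 (array 1) and 0.02 (array 2) over all genes tested. The median of the mean ratios was 0.08, a fold of 1.06, and the mean ratios ran from -0.17 for *Mrpl33* to 0.49 for *Mrps27*. A ratio above 0 on both arrays was found for 34 of the 75 genes (45.3%) and for 29.2% of all genes tested. A ratio below 0 on both arrays was found for 13 of the 75 (17.3%) and for 25.3% of all genes tested. The remaining 28 genes changed sign between the arrays. These counts and medians describe 2 arrays and were given no test as a set.

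Single genes of the group were seldom resolved. Under the call rule, 1 of the 75 genes was higher in *Gde5* skKO (1.33%), against 1.57% of all genes tested. None of the 75 was lower, against 1.73% of all genes tested. The share called was therefore near or below the background in both directions. For comparison, 216 genes (1.59%) passed the same threshold on both arrays in the direction of the dye, and none of them was a mitochondrial ribosomal protein gene. No gene of the group reached a mean fold of 1.5 in either direction.

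The ratio of a single gene carried an error of 0.20 on the log2 scale from the scanner software on either array (median over the 75 genes). The arrays differed from each other by a median of 0.14, and by 0.53 at most, for *Mrpl44*. The SD of the 75 mean ratios was 0.14, and the SD of the part that followed the dye was 0.10. The corresponding values for all genes tested were 0.28 and 0.30, but these include genes too dim to pass in every channel. For the 12327 genes whose probes, like those of the 75, were clearly detected for either genotype each time, they were 0.24 and 0.18. Across the 75 genes the ratios of array 1 and array 2 had a Pearson r of 0.28 and a Spearman rho of 0.28. With the ratios renormalized in limma, Pearson's r was -0.12, so this correlation depended on the processing. *Mrpl55* had limma ratios of -0.44 on array 1 and 0.60 on array 2, against -0.00 and 0.26 from the scanner software. Its part in the correlation was not tested. The genes share both arrays and are not independent replicates.

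**Figure D1:**
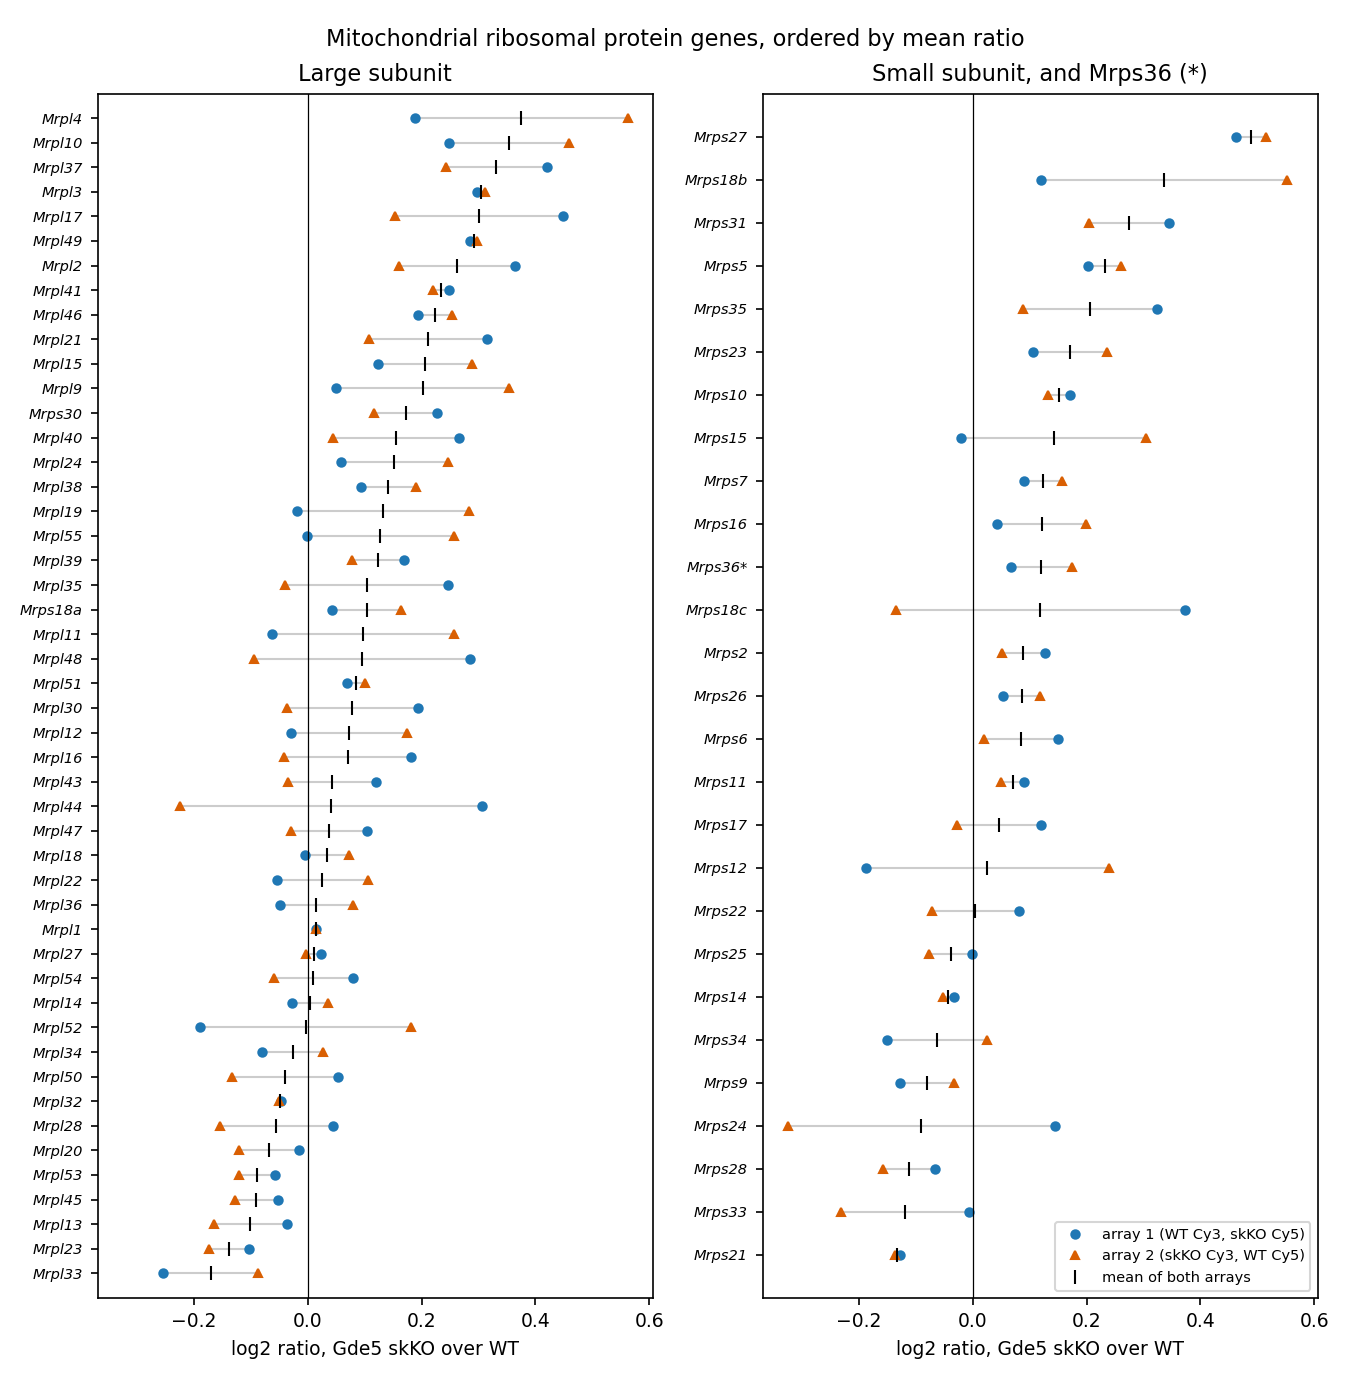
Log2 ratio of Gde5 skKO over WT (horizontal axis) for each mitochondrial ribosomal protein gene, the 48 of the large subunit on the left and the 26 of the small subunit with Mrps36 on the right. Circles are array 1, triangles are array 2 with the dyes exchanged, and ticks are their mean, which runs from -0.17 for Mrpl33 to 0.49 for Mrps27.

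Limma's moderated test, which draws the error of each gene towards a value fitted over all genes, passed more members before adjustment. At an unadjusted p under 0.05, 9 of the 75 genes (12.0%) were higher and none was lower, against 4.26% and 4.3% of all genes tested. After Benjamini-Hochberg adjustment over all genes none of the 75 passed, against 0.316% of all genes higher and 0.537% lower. The smallest adjusted p of the group in limma was 0.381. The 9 genes were *Mrps27*, *Mrpl4*, *Mrpl10*, *Mrpl37*, *Mrpl3*, *Mrpl17*, *Mrpl49*, *Mrps31* and *Mrpl2*, whose limma log2 ratios lay between 0.24 and 0.31.

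Other rules gave counts on either side of their background. Student's t-test, named in the study's methods for comparisons of 2 groups, was run on the 2 *Gde5* skKO and 2 WT log2 signals. It was unpaired, so it did not use the sharing of each array by both genotypes. Before adjustment it passed 6 of the 75 genes as higher (8.0%) and none as lower, against 4.53% and 4.21% of all genes tested. After Benjamini-Hochberg adjustment it passed 0.0% of all genes as higher. Array 1 alone passed 3 of the 75 as higher (4.0%) and none as lower, against 6.83% and 5.3% of all genes. Array 2 alone passed 4 as higher (5.33%) and none as lower, against 7.13% and 6.71%. With a p-value under 0.01 on both arrays, with Benjamini-Hochberg adjustment within each array, or with a mean fold of at least 1.5 added to the call rule, no gene of the group was higher, against 0.787%, 0.361% and 1.04% of all genes.

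The called gene was *Mrps27*, which encodes a pentatricopeptide repeat protein of the small subunit. Its probe at chr13:100515234-100515293 (mm8) gave a processed signal of 331 in WT and 456 in *Gde5* skKO on array 1. On array 2 the signal was 354 in WT and 506 in *Gde5* skKO. *Gde5* skKO was the higher genotype under both dye orientations, and the log2 ratios were 0.46 ± 0.22 and 0.52 ± 0.22 (error of the scanner software within each array). The p-values of the error model were 0.0321 on array 1 and 0.0175 on array 2, and the mean fold was 1.40. In limma the log2 ratio was 0.30 with a standard error of 0.10 and an adjusted p of 0.396. *Mrps27* had 1 probe on the array, so no other probe could be set beside it. The probe is among the dimmer ones of the group.

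The next highest genes were higher on both arrays, but each passed the threshold on no more than 1 array. *Mrpl4*, a core protein of the large subunit, had ratios of 0.19 on array 1 and 0.56 on array 2. Its processed signal was 815 in WT and 928 in *Gde5* skKO on array 1, and 765 in WT and 1129 in *Gde5* skKO on array 2. *Mrpl10*, the base of the flexible stalk that engages translation factors, had ratios of 0.25 and 0.46. *Mrps18b*, a small-subunit protein with the dimmest probe of the group, had ratios of 0.12 and 0.55, and its limma log2 ratio was 0.14. For these 3 genes the ratio of array 2 was the larger one.

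*Mrpl37*, a mitochondria-specific protein of the large subunit, went the other way between arrays, with 0.42 on array 1 and 0.24 on array 2. *Mrpl3*, which in bacteria reaches towards the catalytic centre, gave nearly equal ratios of 0.30 and 0.31. Its processed signal was 13250 in WT and 16273 in *Gde5* skKO on array 1, and 13113 in WT and 16275 in *Gde5* skKO on array 2. Of the 6 highest genes it had the brightest probe and the smallest difference between the arrays. In limma its log2 ratio was 0.28 with a standard error of 0.10 and an adjusted p of 0.42.

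At the other end, 6 genes had mean ratios between -0.10 and -0.17, all below 0 on both arrays and none past the threshold on either. *Mrpl33*, a small protein of the large subunit, had ratios of -0.25 and -0.09. Its processed signal was 31460 in WT and 26374 in *Gde5* skKO on array 1, and 34299 in WT and 32276 in *Gde5* skKO on array 2. *Mrpl23*, a protein of the polypeptide exit site, had ratios of -0.10 and -0.17. *Mrps21* had ratios of -0.13 and -0.14, and *Mrps33* had ratios of -0.01 and -0.23. Both encode proteins of the small subunit. *Mrps28* had ratios of -0.07 and -0.16, and *Mrpl13* had ratios of -0.04 and -0.17. The lowest adjusted p among these 6 genes in limma was 0.787, for *Mrpl33*.

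For both subunits of the mitoribosome the median ratio was above 0 on each array. The 48 genes of the large subunit, counted with *Mrps18a* and *Mrps30* whose products sit there in spite of their names, had medians of 0.06 (array 1) and 0.08 (array 2). Of these, 20 were above 0 on both arrays and 7 below. The 26 genes of the small subunit had medians of 0.09 (array 1) and 0.05 (array 2), with 13 above 0 on both arrays and 6 below. *Mrps36* has the name of a ribosomal protein but belongs to the 2-oxoglutarate dehydrogenase complex, and it had ratios of 0.07 and 0.17.

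By origin of the protein or by its place in the particle, the median mean ratios of the classes lay between 0.04 and 0.09. The 48 genes of families shared with bacteria had a median mean ratio of 0.08, with 19 above 0 on both arrays and 9 below. The 26 genes of mitochondria-specific proteins had a median of 0.09, with 14 above 0 on both arrays and 4 below. The 8 genes of the polypeptide exit site, where the new chain leaves towards the inner membrane, had medians of 0.08 (array 1) and 0.02 (array 2) and a median mean ratio of 0.04. The 7 genes of the central protuberance had a median of 0.09, with 3 above 0 on both arrays and none below. The 6 genes listed under the stalks of the large subunit and their bases, *Mrpl1* among them, had a median mean ratio of 0.04. Their median was -0.01 on array 1 and 0.09 on array 2. No difference between these classes was tested.

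Within the group, the genes with dimmer probes had the higher ratios. The 25 genes with the dimmest probes had a median mean ratio of 0.15, and 17 of them were above 0 on both arrays. The middle 25 had a median of 0.08, with 11 above 0 on both arrays. The 25 with the brightest probes had a median of 0.03, with 6 above 0 on both arrays and 7 below, and its median was -0.01 on array 1 and 0.04 on array 2. All genes tested with probes in the same 3 ranges of brightness had medians of 0.01, -0.01 and 0.00. Of those genes, 31.5%, 29.0% and 29.7% were above 0 on both arrays, against 68.0%, 44.0% and 24.0% of the group. Below 0 on both arrays were 28.0%, 32.7% and 30.2%, against 12.0%, 12.0% and 28.0% of the group. Across the 75 genes, mean ratio and mean log2 signal had a Pearson r of -0.49 and a Spearman rho of -0.45, against -0.03 and -0.04 for the 9077 genes in the same range of brightness. With limma's ratios these 3 sets of 25 had medians of 0.11, 0.06 and 0.00. Brightness depends on the probe as well as on the transcript, so it is not a level that can be compared between genes, and its part in the ratios was not tested.

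**Figure D2:**
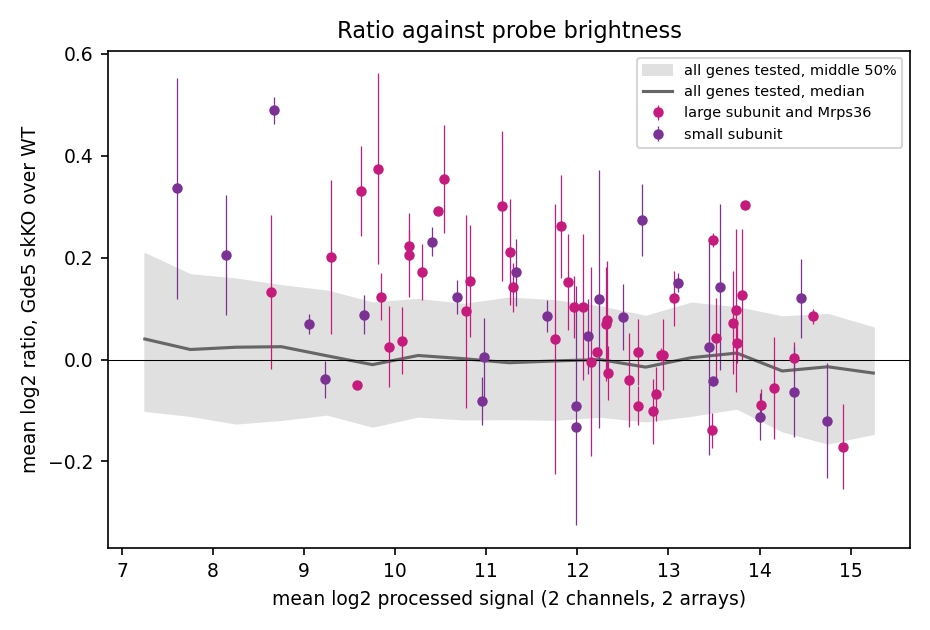
Mean log2 ratio of Gde5 skKO over WT (vertical axis) against the mean log2 processed signal of the probe (horizontal axis) for the 75 mitochondrial ribosomal protein genes, with bars from the lower to the higher array. The grey line and band are the median and the middle 50% of all genes tested, which stay near 0, while the points fall with brightness (Pearson r of -0.49).

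Several genes were read by more than 1 probe. Of 27 genes with more than 1 passing probe, 18 had mean ratios of 1 sign at all of them, and the median range between the probes of a gene was 0.10. In 2 genes the probes differed by more than 0.5, *Mrps5* and *Mrpl1*. When any probe of a gene could make the call, 3 genes were higher (4%), against 1.93% of all genes, and none was lower, against 2.0% of all genes. This way of counting was added after the probes of *Mrps5* and *Mrpl3* were seen.

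*Mrps5*, a protein of the small subunit that in bacteria lines the entry of the messenger RNA, had the largest spread. Its probe nearest to the 5′ end, at chr2:127282219-127283310 (mm8), gave a processed signal of 620 in WT and 1237 in *Gde5* skKO on array 1. On array 2 the signal was 563 in WT and 1084 in *Gde5* skKO. The log2 ratios were 1.00 and 0.94, a mean fold of 1.96, and both passed the threshold. This 60-base probe is placed over 1092 bases of the genome, so it reads sequence joined across an intron. The next probe, at chr2:127292304-127292854, had ratios of 0.25 and 0.38. The probe nearest to the 3′ end of the 3, at chr2:127295070-127295129, was the brightest and represented the gene, with ratios of 0.20 and 0.26. All 3 were above 0 on both arrays, and only the first passed the threshold. The remaining probe, further towards the 3′ end, was not well above background.

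*Mrpl3* had 4 passing probes, all above 0 on both arrays. From the 5′ end to the 3′ end their mean ratios were 0.57, 0.57, 0.28 and 0.30. With limma's ratios the values were 0.49, 0.12, 0.27 and 0.28. The second of these probes was dim, with processed signals of 83 to 143. The first, at chr9:104922214-104929524 (mm8), passed the threshold with ratios of 0.48 and 0.65. In the same order, *Mrpl44* had 0.38, 0.18 and 0.04 over its 3 probes, and *Mrpl49* had 0.29, 0.20 and 0.12 over its own.

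*Mrpl1*, a protein of the large subunit, had lower mean ratios at its dim probes than at its brightest one. Its brightest probe had a ratio of 0.01 on both arrays. A dim probe nearer to the 3′ end had ratios of -0.56 and -0.31. Another probe, nearer to the 5′ end, had ratios of -0.01 and -1.29 and was not well above background in every channel. Neither of the dim probes made a call.

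A higher ratio nearer to the 5′ end was seen on the arrays as a whole. Among 3351 genes with at least 2 separate probes on 1 strand, all well above background in both channels, the probe nearest to the 5′ end had the higher mean ratio in 61.3%. The median difference between the first and the last probe was 0.06 on array 1 and 0.05 on array 2. Of the mitochondrial ribosomal protein genes, 26 could be read this way. The first probe was the higher in 16 of them (61.5%), and the median difference was 0.04. It was higher on both arrays in 9 genes (34.6%) and lower on both in 2 (7.69%), against 31.6% and 16.3% of the 3351 genes. The difference of 0.74 in *Mrps5* was reached or passed by 1.01% of the 3351 genes. The first probe was brighter than the last in 966 of the 3351 genes and in 9 of the 26. Position and brightness of the probes were not separated. A difference between the ends of transcripts is a sign by which RNA quality is judged, and its part in the ratios of the group was not tested.

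**Figure D3:**
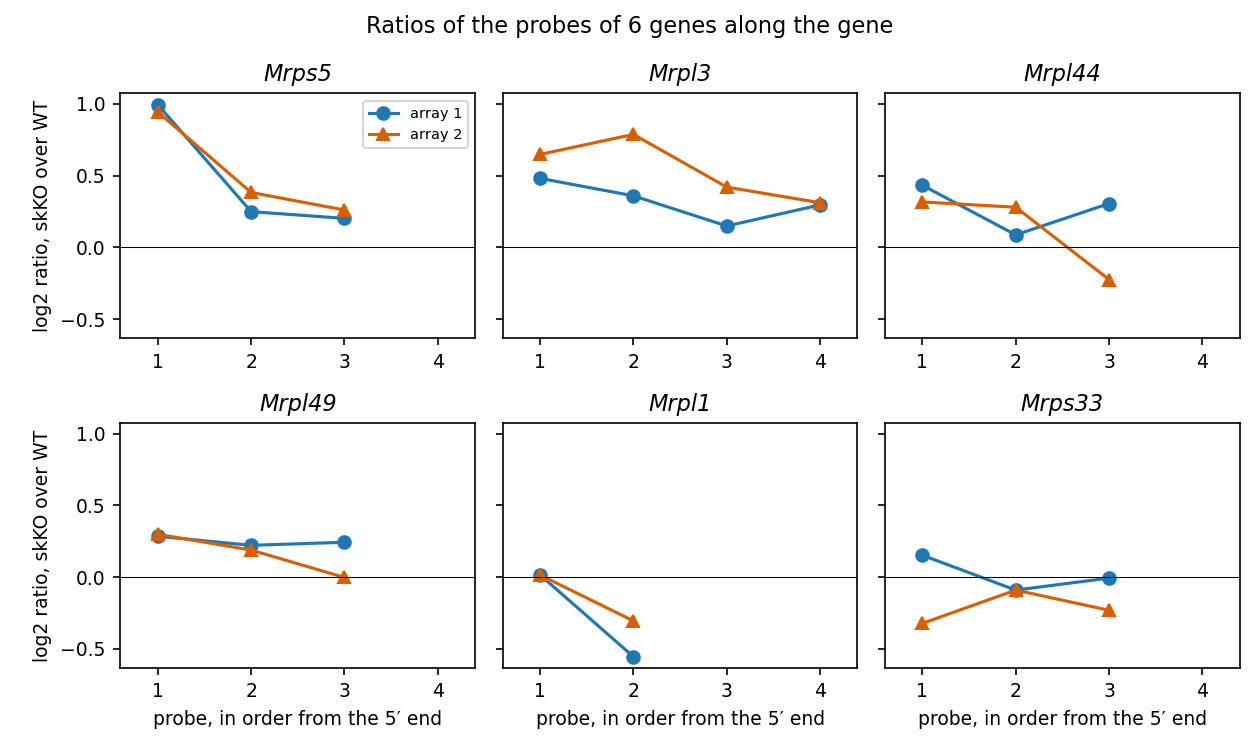
Log2 ratio of Gde5 skKO over WT (vertical axis) for the probes of 6 mitochondrial ribosomal protein genes in order from the 5′ end (horizontal axis), with circles for array 1 and triangles for array 2. The first probe of Mrps5 stands at 1.00 and 0.94, above its other probes at 0.20 to 0.38, and the 4 probes of Mrpl3 are above 0 on both arrays.

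The promoters of the called gene, of the 2 further genes with a called probe and of the lowest gene are shown to set their sequences side by side. They are taken from RefSeq (GRCm38.p6, a different build from the probe positions), run from 250 bases before to 50 bases after the start, and lie on the plus strand. Capitals mark matches, on either strand, to CCGGAAG (the core of the site of *Gabpa*), GCATGCGC (part of the site of *Nrf1*), AAGATGGCG (*Yy1*), TCAAGGTCA (*Esrra*) or CACGTG (*Myc*).
*Mrps27*, chr13:99344536-99344835: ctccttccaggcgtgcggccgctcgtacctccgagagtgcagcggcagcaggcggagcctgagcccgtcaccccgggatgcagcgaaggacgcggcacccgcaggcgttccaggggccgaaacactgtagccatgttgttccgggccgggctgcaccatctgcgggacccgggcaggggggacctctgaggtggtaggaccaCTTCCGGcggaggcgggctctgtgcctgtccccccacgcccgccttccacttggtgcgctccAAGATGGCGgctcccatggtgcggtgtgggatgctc
*Mrps5*, chr2:127587176-127587475: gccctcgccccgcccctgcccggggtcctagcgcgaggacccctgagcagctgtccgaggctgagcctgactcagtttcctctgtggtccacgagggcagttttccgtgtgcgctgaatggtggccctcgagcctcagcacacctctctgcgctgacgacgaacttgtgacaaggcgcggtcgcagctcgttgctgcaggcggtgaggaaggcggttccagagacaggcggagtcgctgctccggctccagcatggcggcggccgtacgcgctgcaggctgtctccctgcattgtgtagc
*Mrpl3*, chr9:105053018-105053317: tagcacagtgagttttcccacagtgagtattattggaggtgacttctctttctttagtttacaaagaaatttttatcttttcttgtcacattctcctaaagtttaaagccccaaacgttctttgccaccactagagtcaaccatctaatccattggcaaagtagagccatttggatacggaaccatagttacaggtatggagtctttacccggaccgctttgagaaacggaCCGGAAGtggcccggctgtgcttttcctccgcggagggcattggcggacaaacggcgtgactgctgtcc
*Mrpl33*, chr5:31613701-31614000: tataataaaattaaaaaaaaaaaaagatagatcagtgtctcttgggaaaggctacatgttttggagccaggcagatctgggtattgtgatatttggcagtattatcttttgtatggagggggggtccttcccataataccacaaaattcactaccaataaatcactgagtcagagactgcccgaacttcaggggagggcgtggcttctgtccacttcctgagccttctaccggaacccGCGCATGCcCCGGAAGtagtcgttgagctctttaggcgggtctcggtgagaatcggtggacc
The promoter of *Mrps27* held 1 match for *Gabpa* and 1 for *Yy1*, and that of *Mrpl3* held 1 for *Gabpa*. That of *Mrpl33*, the lowest gene, held 1 for *Gabpa* and 1 for *Nrf1*, and that of *Mrps5* held none of the 5.

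In the table of promoters, 66 of the 75 genes matched, with 72 promoters. CCGGAAG was found in 24 of these 72 (33.3%), in 36.5% of the promoters of cytosolic ribosomal protein genes, in 23.0% of those of respiratory chain genes, and in 8.86% of all 32851 promoters of the same length. GCATGCGC was found in 8 (11.1%), against 4.05% for the cytosolic ribosomal protein genes, 13.5% for the respiratory chain and 2.71% of all promoters. AAGATGGCG was found in 7 (9.72%), against 8.11%, 9.46% and 1.40%. CACGTG was found in 7 (9.72%) and 7.15%, and TCAAGGTCA in none and 0.423%. The 24 genes with CCGGAAG had medians of 0.05 (array 1) and 0.10 (array 2), whereas the 42 without it had 0.10 and 0.05, so the order turned between the arrays. The 8 genes with GCATGCGC had medians of 0.08 and 0.13, and the 58 without it had 0.08 and 0.05. A match of letters does not show a bound site.

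The transcripts of the factors that bind these motifs, and of their coactivators, were not called. *Ppargc1a*, a coactivator of mitochondrial biogenesis, had ratios of 0.57 on array 1 and 0.30 on array 2, and passed the threshold on array 1 alone. In limma its log2 ratio was 0.41 with an adjusted p of 0.235. *Gabpa* had ratios of -0.24 and -0.15, and *Esrra*, a nuclear receptor that binds with *Ppargc1a*, had 0.03 and 0.28. *Nrf1* had ratios of -0.19 and 0.19, and did not stand well above background in every channel. The 9 regulators tested had a median mean ratio of -0.01, with 3 above 0 on both arrays and 1 below, and 0.02 with limma's ratios.

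The mitoribosome subunits that the array lists under other names were read in the same way, and none of the 7 was called. *Ptcd3*, a pentatricopeptide repeat protein of the small subunit, had ratios of 0.18 and 0.30. *Gadd45gip1* had 0.23 and 0.21, and *Mrpl58* had 0.05 and 0.16. Both encode proteins of the large subunit, the latter a peptidyl-tRNA hydrolase.
*Dap3*, which binds GTP in the small subunit, had -0.03 and 0.09, and *Aurkaip1* had -0.00 and 0.06. *Mrpl57* had -0.26 and -0.09, and *Chchd1* had -0.16 and -0.37. The median of the 7 was -0.00 on array 1 and 0.09 on array 2, with 3 above 0 on both arrays and 2 below.

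Genes that act with the mitoribosome had median mean ratios of 0.10 to 0.12, but the medians of the assembly genes and the synthetases were smaller with limma's ratios. Of the 15 translation factors and helpers, 9 were above 0 on both arrays and 1 below, with a median mean ratio of 0.12 and none called. *Tufm*, the elongation factor that delivers aminoacyl-tRNA, had ratios of 0.30 and 0.38, whereas *Tsfm*, which recharges it, had -0.20 and -0.02. The elongation factor *Gfm1* had 0.11 and 0.17, and the initiation factor *Mtif2* had -0.05 and 0.26. *Lrpprc*, which stabilises mitochondrial messenger RNA, had 0.17 and 0.00. The 22 tested genes of mitoribosome assembly and rRNA modification had a median of 0.10, with 9 above 0 on both arrays and 4 below, and 0.06 with limma's ratios. The 17 tested mitochondrial aminoacyl-tRNA synthetases also had a median of 0.10, with 6 above 0 on both arrays and none below, and 0.02 with limma's ratios. No gene of either list was called.

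The genes of mitochondrial DNA transcription and its products were not called either. Among the 5 genes of transcription, with medians of 0.07 on array 1 and -0.04 on array 2, *Tfam*, which packages and activates mitochondrial DNA, had ratios of 0.04 and 0.10, and the RNA polymerase *Polrmt* had 0.07 and 0.02. The 3 probes of messengers made from mitochondrial DNA had mean ratios of -0.10 for COX2, 0.06 for CYTB and -0.01 for ND4L, and all 3 changed sign between the arrays.

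The cytosolic ribosomal protein genes, whose products build the other ribosome of the cell, had medians below 0. These were -0.02 (array 1) and -0.05 (array 2) over the 82 tested, with 14 above 0 on both arrays (17.1%) and 31 below (37.8%). The 81 tested respiratory chain genes had medians of 0.09 and 0.02, with 31 above 0 on both arrays (38.3%) and 8 below (9.88%). No gene of these 2 lists was called. The mean ratios of the 3 lists overlapped over most of their ranges, with quartiles of -0.00 and 0.16 for the mitochondrial ribosomal protein genes, -0.10 and 0.03 for the cytosolic ones and -0.02 and 0.12 for the respiratory chain. The differences between the lists were given no test.

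**Figure D4:**
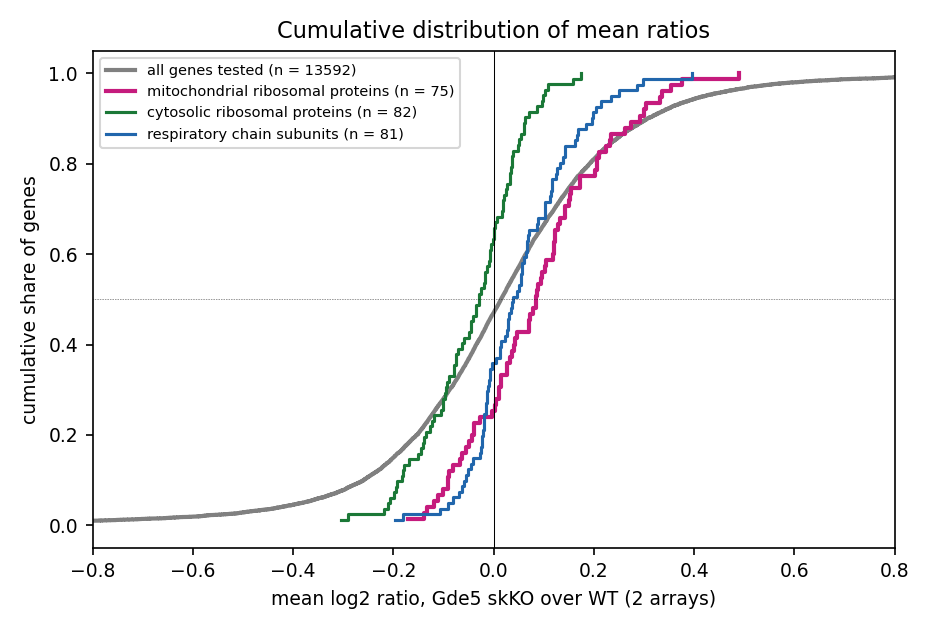
Cumulative share of genes (vertical axis) against the mean log2 ratio of Gde5 skKO over WT on 2 arrays (horizontal axis, shown from -0.8 to 0.8). The curve of the 75 mitochondrial ribosomal protein genes crosses 50% at 0.08, to the right of the 82 cytosolic ribosomal protein genes at -0.03, the 81 respiratory chain genes at 0.04 and the 13592 genes tested at 0.01.

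Some markers of fibre type and of other cells differed between the genotypes on the same arrays. Of 11 slow fibre markers, 9 were above 0 on both arrays and none below. Their median mean ratio was 0.40, and 4 were called higher, *Myl2*, *Csrp3*, *Tnni1* and *Casq2*, with mean ratios from 0.67 to 0.84. The 12 fast fibre markers had a median of -0.05, or 0.00 with limma's ratios, and none was called. By quantitative PCR with primers for myosin heavy chains, the paper reports comparable fibre-type mRNA in *Gde5* skKO and WT mice. None of the called fibre markers is a myosin heavy chain. Of 7 adipocyte markers 6 were tested and 5 of them were called lower, *Adipoq*, *Cfd*, *Retn*, *Cidec* and *Plin1*, each with a mean ratio of -0.69 or lower. Of 5 liver markers tested, *Mup1* and *Ahsg* were lower and *Apoh* was higher. The 6 tested markers of blood and immune cells and the 8 of fibroblasts and tendon had medians of -0.21 and -0.11, with none called. These lists include genes known from earlier results of the same arrays. In whole muscle, a different number of cells of a type and a different amount of RNA per cell cannot be told apart. The part of fibre type or cell makeup in the ratios of the mitochondrial ribosomal protein genes was not tested.

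**Figure D5:**
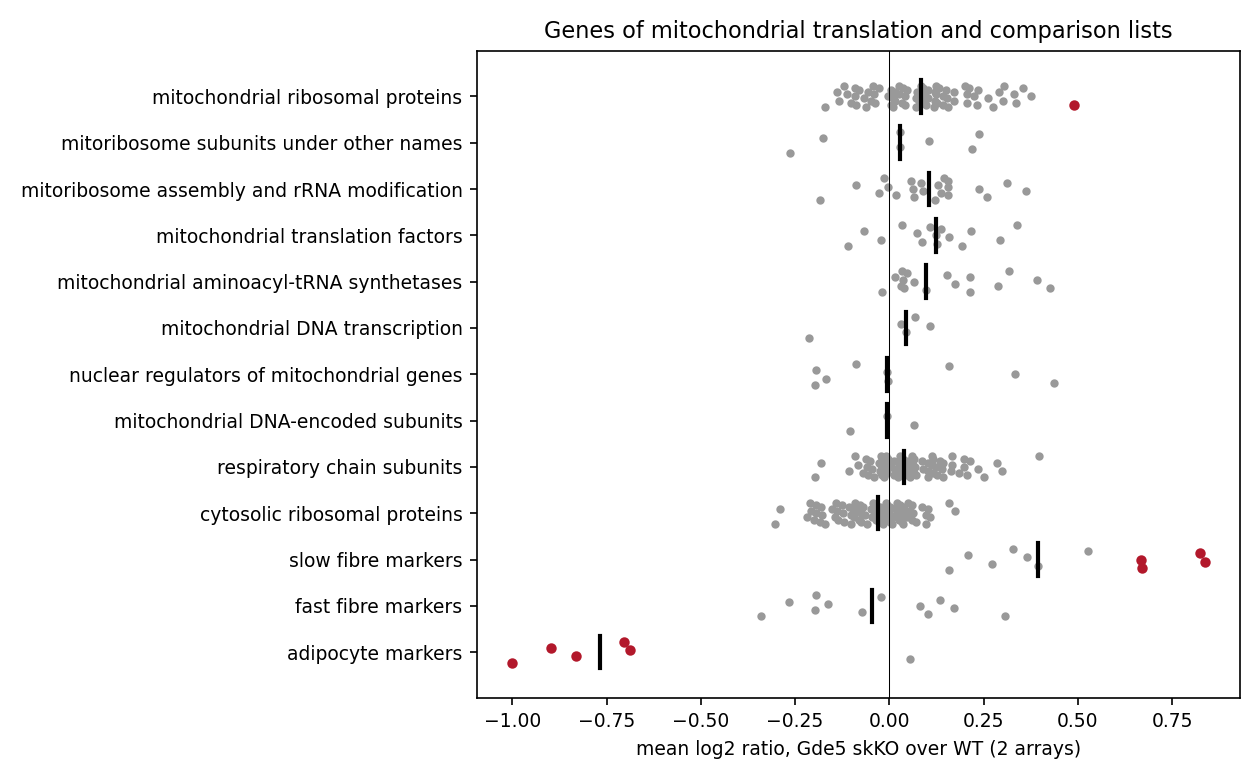
Mean log2 ratio of Gde5 skKO over WT (horizontal axis) for each gene of the lists of mitochondrial translation, comparison and fibre or fat markers, with a bar at the median and red points for called genes. Mrps27 is the single red point among the lists of mitochondrial translation and the comparison lists, whereas 4 slow fibre markers at 0.67 to 0.84 and 5 adipocyte markers at -0.69 or lower are red.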

How the data were processed

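The authors hybridized labelled RNA of WT and *Gde5* skKO GAS muscle to 2 dye-swapped Agilent arrays and used Feature Extraction 9.5.3.1 on the scans. For every spot the deposited files hold the log10 ratio of the red to the green channel (Cy5 to Cy3), made after background subtraction, detrending and linear and lowess dye normalization, and a p-value from the software's error model within that array. The deposited files also hold the intensity of each spot and of its background in both channels, from which the scanner software made the processed signals. A deposited table of the series holds the same log10 ratios with fewer digits, always red over green, and differed from the scanner files by at most 0.00441.

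Here the log10 ratios were converted to log2 and given the direction of *Gde5* skKO over WT, and the spots of each probe were averaged. Left out were control spots and those marked as outliers (164 on array 1 and 200 on array 2 of 43379 non-control spots). In each channel 44.6% to 53.2% of spots were well above background. The precision is limited by there being 2 arrays. Probes were named through a RefSeq table, 24496 by accession, 6234 by symbol and 2386 by synonym, and 8058 kept the array's name. Probe coordinates are those of the array annotation (mm8). Mean ratios are the mean of both arrays. The genes named are *Gde5*, the called genes, the 6 highest and the 6 lowest, those whose passing probes differ by over 0.5, the 7 subunits under other names and 11 genes of mitochondrial translation and its regulation. In the other lists the called genes were named. *Mrps7*, *Mrps18a*, *Mrps30* and *Mrps36* were named for their annotation or a missing value. *COX2*, *CYTB* and *ND4L*, *Mrpl44*, *Mrpl49*, *Mrpl55*, the remaining genes past limma's unadjusted threshold and the probes of *Mrpl3* were named after their values were seen. The members, the lists and the tests were chosen with earlier results of these data known.

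Alternatives were limma 3.58.1 under R 4.3.3 (normexp with an offset of 50, loess, moderated test) and the unpaired t-test of log2 channel signals. Further ones were other thresholds, filters and scalings, the series table and each array alone. In the normexp fit, 11 spots of array 1 beside debris took the array's median. Everything else was run in Python 3.11.15 (pandas 2.3.3, numpy 2.4.6, matplotlib 3.10.9, scipy 1.17.1) and was first tested on simulated ratios.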

Additional observations from a re-analysis of the deposited data

How the results depend on the processing

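The count of mitochondrial ribosomal protein genes called higher, 1 of 75, depended on the rule, and no alternative that was run called a gene of the group lower. It was 9 by the moderated test of limma and 6 with the unpaired t-test, both before adjustment (p under 0.05). The count was 3 when any probe of a gene could make the call. It was 0 after Benjamini-Hochberg adjustment in limma, in the unpaired t-test or within each array. It was also 0 with a p-value of the error model under 0.01 and 0 with a mean fold of at least 1.5. On a single array it was 3 to 4, below the share of all genes called there. *Mrps27* lost its call under those stricter thresholds and kept a ratio above 0. The median mean ratio of the 75 genes, 0.085, was 0.0699 with limma's ratios, 0.0708 with loess alone, 0.0728 with each array centred on its median, and 0.0772 to 0.0792 on the single arrays. That of the large subunit, 0.0816, was 0.0693 with limma's ratios, 0.0694 with centring and 0.0637 to 0.0782 on the single arrays, and that of the small subunit, 0.0851, was 0.0501 to 0.0898 on them. That of the families shared with bacteria, 0.0754, was 0.0589 with loess alone and 0.0437 to 0.0617 on the single arrays. That of the mitochondria-specific proteins, 0.0902, was 0.121 with the mean over all probes of a gene and 0.0825 to 0.113 on the single arrays. These 5 medians, *Mrps27*, the 5 next highest and the 6 lowest genes kept their sign under the alternatives that were run. The medians of smaller classes and other lists did not all do so: those of the stalk genes, the brightest 25 genes, the genes of mitochondrial DNA transcription, the subunits under other names, the nuclear regulators, the messengers from mitochondrial DNA and the fast fibre markers changed sign on 1 array or with limma's ratios, as did *Mrpl44* between the arrays. The causes were not tested.

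Every ratio already pairs the genotypes within an array. Slide or scan could not be a block because both arrays share 1 slide and 1 scan. With 2 arrays and an error of 0.20 per ratio, differences of the size of the group's median could not be resolved for single genes.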
